A study of Mus musculus with 24 samples.

Results

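B16F10-luc2 is a mouse melanoma cell line that carries a luciferase reporter. The cells compared here were 2 knockout (KO) lines made from it with CRISPR-Cas9: the TFEB KO, which keeps MITF and TFE3, and the TFEB/TFE3 double knockout (DKO), which keeps MITF alone. The members were the 3 libraries labelled for each of these genotypes, 6 of the 24 libraries of the series, and all 12010 genes of the table were tested between them. The other 18 libraries came from the parental cells and the TFE3 KO, MITF KO, MITF/TFE3 DKO, MITF/TFEB DKO and triple KO (TKO) lines, 3 each. All lines were grown in DMEM with 10% serum, with no treatment, and 3′ end RNA-seq of poly(A) RNA was performed. Each KO line was isolated as a clone, so the effect of losing TFE3 cannot be told apart from other differences between these 2 clones, and the 3 libraries of a line measure the spread within a clone. Nothing in the labels says that the 3 came from separate cultures.

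TFE3, TFEB and MITF are closely related basic helix-loop-helix leucine zipper transcription factors that bind E-box DNA. TFE3 and TFEB are held in the cytoplasm when mTORC1, the kinase complex that senses nutrients at the lysosome, is active, and enter the nucleus on starvation to drive genes of lysosomes, autophagy and the stress response. MITF directs the melanocyte lineage. The comparison asks what TFE3 contributes in cells that already lack TFEB but still have MITF.

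The guides of the series are shown because they define the genotypes, with the adjacent NGG motif in capitals. Each matched the mouse genome (GRCm39, GENCODE annotation) perfectly at 1 place. The Tfeb site lies at chr17:48097370-48097392 on the plus strand, in the coding part of exon 3 of 9, and the Tfe3 site at chrX:7631803-7631825 on the minus strand, in the coding part of exon 2 of 10. The study's methods print another Tfe3 guide, which was not placed here.
Tfeb site: tggacacgtactgtccacctCGG
Tfe3 site: cgtagaagctgtcaggatcgAGG

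The targeted genes followed the labels in level, although transcripts of both knocked-out genes were still counted. Levels are in CPM, read counts divided by the library total and scaled between libraries by the authors. Tfe3 was at 40.6, 31.1 and 35.4 CPM in TFEB KO libraries and at 14.4, 8.03 and 11.4 CPM in DKO libraries, and the groups did not overlap. The fitted log2 fold change was -1.61 (SE 0.157, limma adjusted p = 2.64e-06). Tfe3 was at a mean of 37.1 CPM in parental cells and 10.8 CPM in the TFE3 KO, so the remaining Tfe3 signal in the DKO was near that of the single KO. Tfeb was at 3.67, 2.06 and 2.91 CPM in TFEB KO libraries and at 5.27, 4.93 and 5.14 CPM in DKO libraries, against a mean of 8.80 CPM in parental cells. Tfeb passed the test by a narrow margin (log2 fold change 0.68, SE 0.18, adjusted p = 0.0492), and edgeR on the reads gave an adjusted p of 0.0523. Mitf was at 886, 646 and 873 CPM in TFEB KO libraries and at 892, 903 and 832 CPM in DKO libraries, with overlapping groups (log2 fold change 0.14, SE 0.0944, adjusted p = 0.525). The fourth family member, Tfec, was not analysed here.

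**Figure D1:**
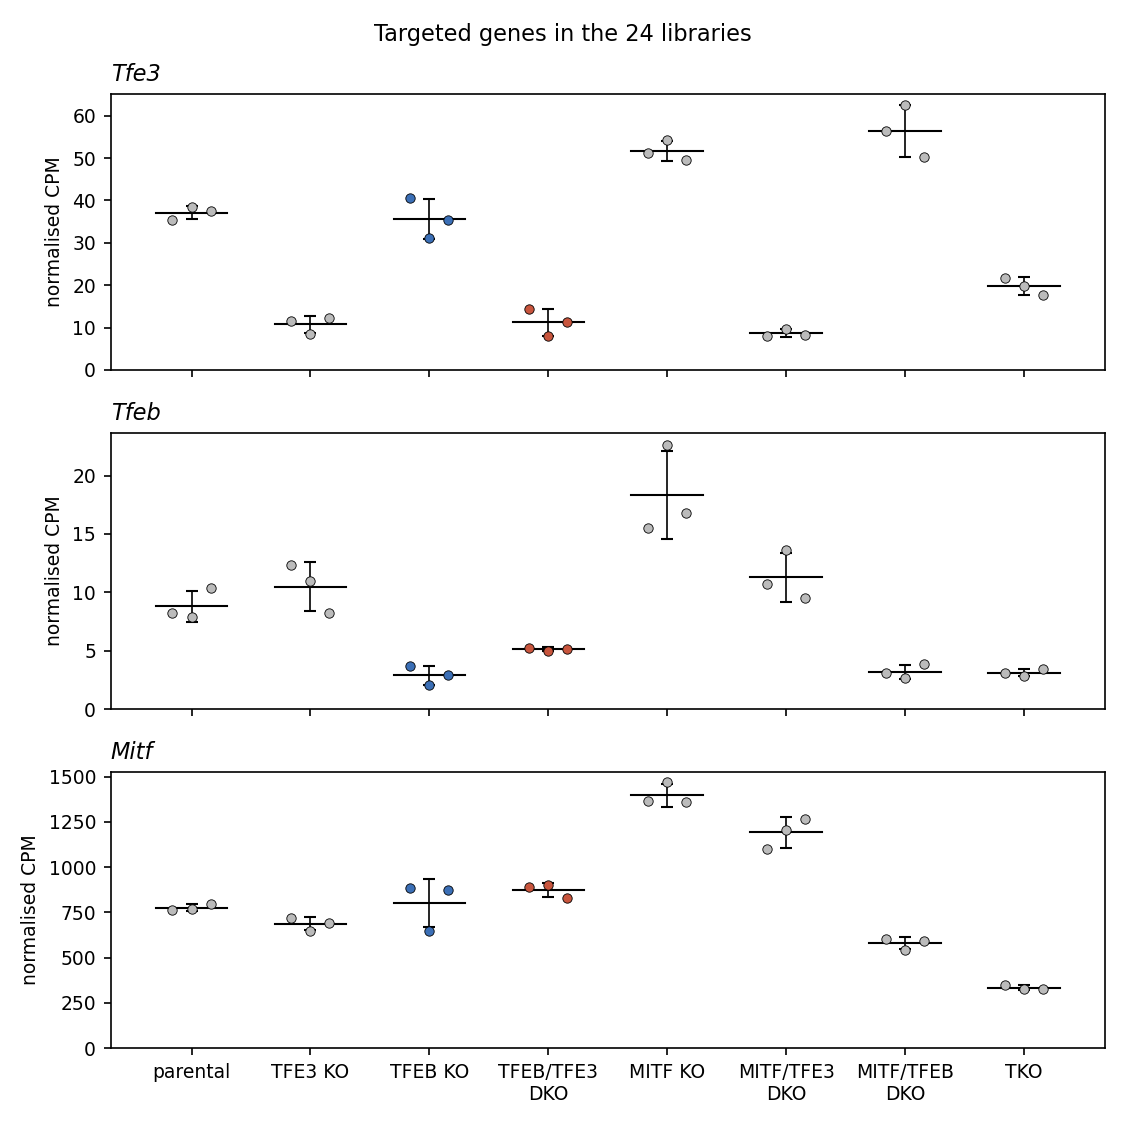
Normalised CPM of Tfe3, Tfeb and Mitf (vertical axes, linear from 0) in each of the 24 libraries, by cell line on the horizontal axis; points are libraries, lines are means and bars are SD (n = 3). Tfe3 is at 8.03 to 14.4 CPM in the DKO (red), below all 3 TFEB KO libraries (blue), which are at 31.1 to 40.6 CPM.

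Reads on genes were 20034773 to 22488067 per library in the TFEB KO and 20356930 to 25469391 in the DKO. Replicate 2 of each line stood apart from its other replicates along the main axis of variation within lines, which held 51.5% of the within-line variance over 9539 genes. Its scores were 20.6 in the TFEB KO and 20.1 in the DKO, while the other 4 libraries of these lines lay between -13.1 and -7.54. The 10 melanocyte markers were all measured and none passed the test with limma or edgeR, with 2 past an unadjusted p of 0.05, and Dct, the pigment enzyme dopachrome tautomerase, was at means of 18800 and 21020 CPM in the TFEB KO and the DKO. Of 12 blood and immune markers only 1 was measured, at a summed level of at most 0.242 CPM in any of the 6 libraries. No stretch of 100 neighbouring expressed genes was shifted by 0.3 or more on the log2 scale between the lines: medians of the stretches lay between -0.09 and 0.115. In TFE3 KO minus parental, a contrast used below, 253 of the 9321 genes used lay in shifted stretches. There the medians lay between -0.369 and 0.158, and the part of such stretches in that contrast was not tested.

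Loss of TFE3 in cells without TFEB moved few genes, and with limma on all libraries more genes rose than fell. In the DKO, 150 genes rose (1.25% of the 12010 tested) and 112 fell (0.933%) at an adjusted p under 0.05, here called passing the test. Differentially expressed genes (DEGs), which also changed at least 2-fold, were 18 higher (0.15%) and 5 lower (0.0416%) in the DKO. With edgeR on the reads the DEGs were nearly even between higher and lower. The groups did not overlap for 261 of the 262 genes that passed, and for 1964 of all 12010 genes (16.4%). The median log2 fold change of all genes was -0.00459, and the middle 90% of genes lay between -0.335 and 0.38. An unadjusted p under 0.05, cited below for gene lists, was reached by 1796 of the 12010 genes. The number that passed rested on the pooled spread of the 8 lines: with only the 6 libraries in the fit 1 gene rose and 1 fell, with the replicate number as a block in that fit 87 rose and 99 fell, and with a replicate term for these 2 lines in the full fit 220 rose and 173 fell. Without both replicate 2 libraries 40 rose and 22 fell, and the DEGs were 12 higher and 7 lower.

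**Figure D2:**
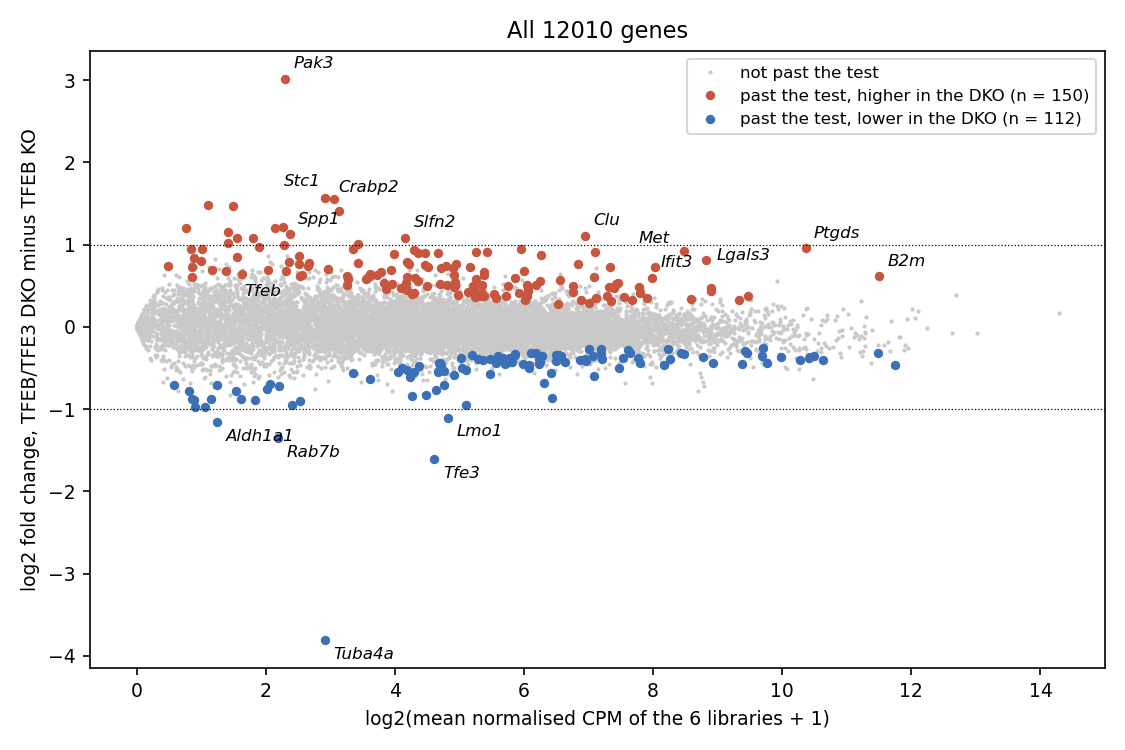
Log2 fold change of TFEB/TFE3 DKO minus TFEB KO (vertical axis) against the log2 mean CPM + 1 of the 6 libraries (horizontal axis), for 12010 genes; dotted lines mark a 2-fold change. The 150 genes that rose (red) and 112 that fell (blue) stand on a grey cloud of genes that did not pass, and only Pak3 and Tuba4a change by more than 2 log2 units.

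The largest fall was in Tuba4a, an alpha-tubulin. It was at 15.9, 11.5 and 11.9 CPM in TFEB KO libraries and had no read in any DKO library. The 807 reads of the TFEB KO libraries made it at least 289-fold lower in the DKO, against a floor of 3 reads over the 3 libraries. Tuba4a was at a mean of 12.5 CPM in parental cells and at 0 in all TFE3 KO libraries, but also at 0 in all MITF KO and MITF/TFEB DKO libraries, whose TFE3 was not targeted. The gene (chr1:75189219-75196566, minus strand) shares 3040 bases with Stk16, a kinase gene on the opposite strand, and whether counting used strand is not given in the sources used here. Stk16 was at means of 65.6 and 59.2 CPM in the TFEB KO and the DKO and did not pass the test (adjusted p = 0.498).

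The other DEGs that fell were Rab7b, Aldh1a1 and Lmo1. Rab7b, a small GTPase of late endosomes and lysosomes, was at 5.0, 6.35 and 5.28 CPM in TFEB KO libraries and 1.24, 1.26 and 2.29 CPM in DKO libraries (log2 fold change -1.35, SE 0.213, adjusted p = 0.00108). Its parental mean was 1.75 CPM, so the DKO was near the parental level and the TFEB KO above it. Aldh1a1, which makes retinoic acid from retinal, was at 1.28, 3.75 and 1.85 CPM against 0.16, 1.01 and 0.191 CPM. This low gene lost its call with edgeR (adjusted p = 0.0703) and without any of TFEB KO replicates 2 and 3 and DKO replicates 1 and 3 (0.0641 to 0.195). Lmo1, a LIM-domain transcription cofactor, was at 33.5, 43.5 and 35.7 CPM against 15.2, 19.7 and 15.9 CPM (log2 fold change -1.1, SE 0.14, adjusted p = 7.81e-05). In the TFE3 KO it stood at a mean of 57.7 CPM, above the parental 29.9 CPM.

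The largest rise was in Pak3, a p21-activated kinase. Pak3 had 0, 0.229 and 0 CPM in TFEB KO libraries and 8.74, 8.75 and 5.86 CPM in DKO libraries (fitted log2 fold change 3.02, SE 0.202, adjusted p = 2.34e-09). Parental cells held a mean of 2.73 CPM and the TFE3 KO 10.5 CPM, so the gene was lowest in the TFEB KO among these 4 lines. The next gene on chromosome X, Capn6, a calpain family member on the opposite strand, whose 3′ end lies 4434 bases beyond that of Pak3, also rose: it had 2 reads over the TFEB KO libraries and 93 over the DKO libraries, a ratio of 43.5 (95% exact counting interval 11.7 to 365).

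Other genes that rose more than 2-fold encode secreted proteins and a retinoid carrier. Crabp2, which carries retinoic acid to its nuclear receptor, was at 3.04, 3.34 and 2.22 CPM in TFEB KO libraries and 10.7, 9.91 and 10.3 CPM in DKO libraries (log2 fold change 1.56, SE 0.186, adjusted p = 3.27e-05). Stc1, a secreted glycoprotein hormone, was at 7.30, 1.14 and 2.54 CPM against 13.6, 10.7 and 8.43 CPM. The spread of its TFEB KO libraries was wide, and its call was lost without TFEB KO replicate 2 (adjusted p = 0.0594) or DKO replicate 1 (0.0597). Clu, the secreted chaperone clusterin, was at 88.8, 67.7 and 74.9 CPM against 175, 138 and 192 CPM (log2 fold change 1.11, SE 0.149, adjusted p = 0.00014). Spp1, the matrix phosphoprotein osteopontin, was at 2.66, 2.01 and 1.85 CPM against 8.34, 6.58 and 3.62 CPM, and it lost its call without both replicate 2 libraries (adjusted p = 0.065). Lgals7, a galectin, was at 5.0, 3.15 and 3.33 CPM against 13.1, 9.52 and 12.6 CPM.

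Several other DEGs that rose were under 6 CPM in each library of both lines. Dppa2, a gene of pluripotent cells, was at 0 to 0.231 CPM in TFEB KO libraries and 1.56 to 2.62 CPM in DKO libraries, and the long noncoding RNA Lncbate10 at 0.32 to 0.745 against 2.60 to 3.43 CPM. Arhgap45 was at 1.44 to 2.08 against 4.79 to 5.80 CPM, and Pstpip1, an adaptor that binds the actin cytoskeleton, at 0.457 to 0.745 against 1.84 to 3.67 CPM. Smtnl1, a smoothelin-like muscle protein, was at 0.229 to 1.38 against 1.84 to 3.15 CPM, and edgeR did not call it (adjusted p = 0.116). Car5a, Tmem255a, Apbb1ip and Tmem179, with log2 fold changes of 1 to 1.09, were also among the 18, with the interferon gene Slfn2 and the endothelial marker Vwf, whose values are given with their lists.

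**Figure D3:**
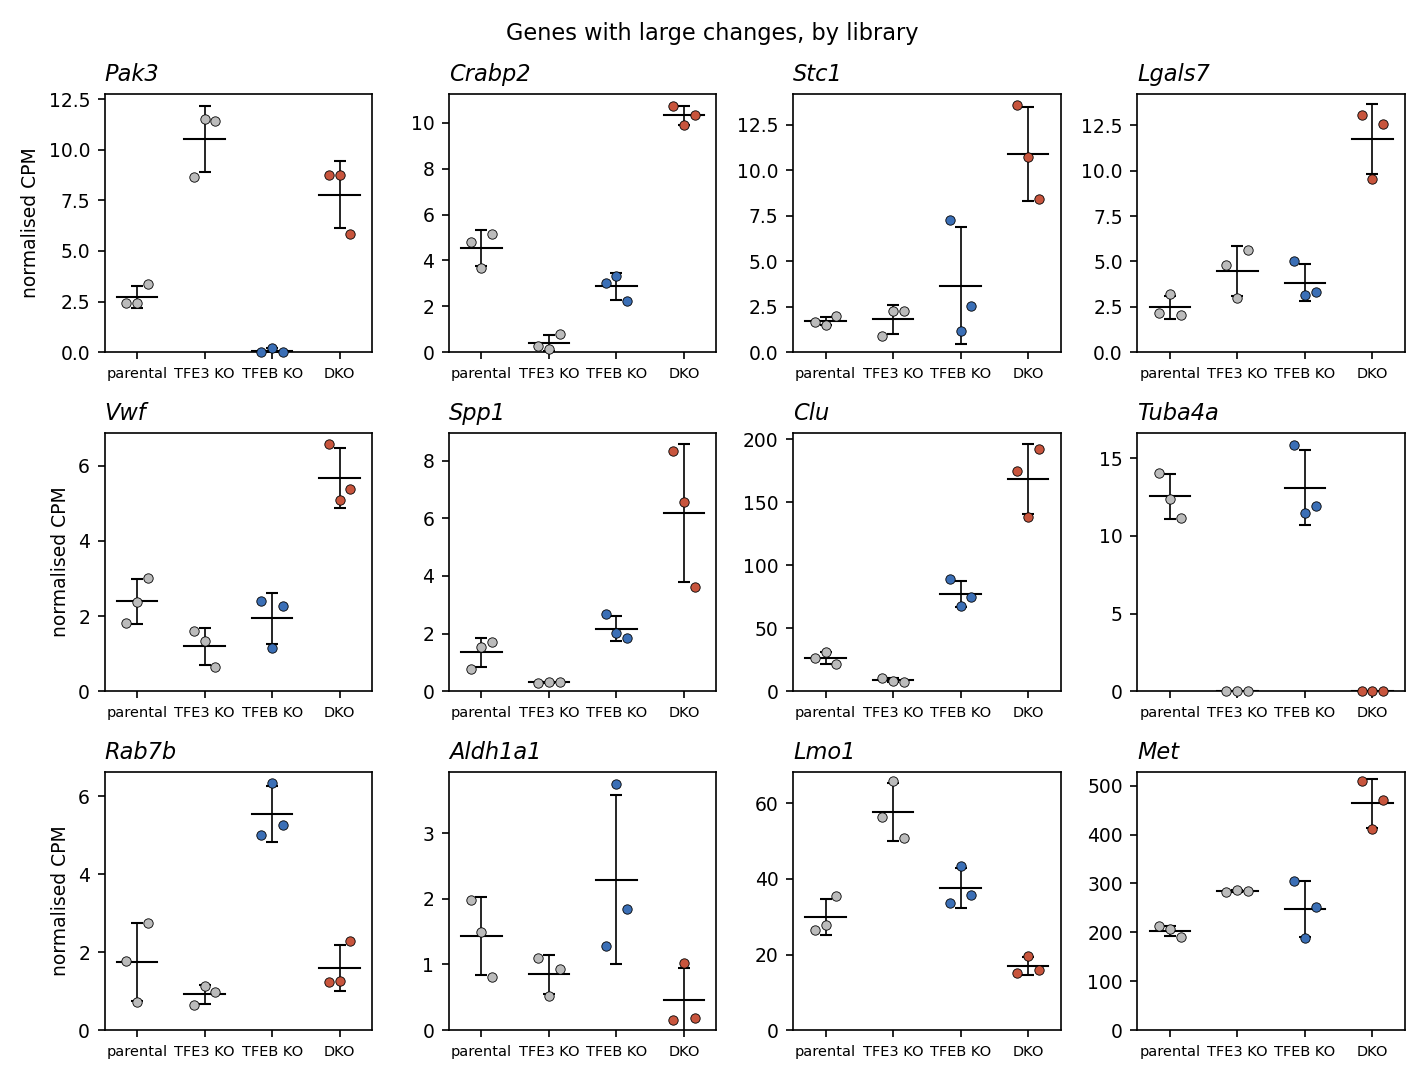
Normalised CPM (vertical axes, linear from 0) of 12 genes in parental cells, the TFE3 KO (grey), the TFEB KO (blue) and the TFEB/TFE3 DKO (red); points are libraries, lines means and bars SD (n = 3), cut at 0. Tuba4a is at 0 in the TFE3 KO and the DKO, while Pak3 is lowest in the TFEB KO, and Clu, Crabp2 and Spp1 are lowest in the TFE3 KO and highest in the DKO.

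Among markers of other cell types, 2 of the 7 endothelial genes were measured and both rose. Vwf, the clotting protein von Willebrand factor, was at 2.40, 1.14 and 2.27 CPM in TFEB KO libraries and 6.59, 5.08 and 5.38 CPM in DKO libraries (log2 fold change 1.21, SE 0.199, adjusted p = 0.0019). Pecam1, an adhesion receptor, was at 15.1, 10.9 and 17.6 CPM against 31.6, 25.5 and 25.5 CPM (log2 fold change 0.89, adjusted p = 0.0167), but edgeR did not call it (adjusted p = 0.165). The summed level of both was 12 to 19.9 CPM in TFEB KO libraries and 30.6 to 38.2 CPM in DKO libraries. The defining receptors Cdh5, Kdr, Tek and Tie1 were not analysed here. Of the fibroblast and epithelial markers 2 of 7 each were measured and none passed the test with limma or edgeR, with 1 in each list past an unadjusted p of 0.05.

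Genes of the TFEB and TFE3 core program did not move together. Of 53 measured lysosomal hydrolases and activators 1 (1.89%) rose, beside 1.25% of all genes, and none fell, with 1 higher by edgeR. At an unadjusted p under 0.05, 4 were higher and 2 lower, beside 1796 of all 12010 genes in both directions together. The gene that rose was Smpd1, acid sphingomyelinase, at 58.6, 50.1 and 56.7 CPM in TFEB KO libraries and 78.6, 75.7 and 75.8 CPM in DKO libraries (log2 fold change 0.47, SE 0.0834, adjusted p = 0.00342), and its call was lost without both replicate 2 libraries (0.0698). The median log2 fold change of the hydrolases was 0.03, with a range of -0.31 to 0.47. Among 48 V-ATPase subunits and lysosomal membrane proteins none passed with limma, 2 higher and 3 lower lay under an unadjusted p of 0.05, and edgeR called only Gpnmb, a melanosomal glycoprotein, higher. Their median was -0.01 (range -0.29 to 0.39). Among 52 autophagy genes none passed with limma or edgeR, 6 higher and 2 lower lay under an unadjusted p of 0.05, and the median was 0.04 (range -0.3 to 0.72). None of the 23 genes of folliculin, the Rag GTPases and their regulators, which signal amino acids to mTORC1, passed with limma or edgeR, 1 lay lower under an unadjusted p of 0.05, and their median was -0.08.

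The promoters of these lists were searched for E-boxes. The palindrome TCACGTGA, an extended E-box that MITF and TFE factors bind, was in 11.5% of the hydrolase promoters and 14.6% of the V-ATPase and membrane promoters, and in 1.74% of all 11664 promoters (250 bases before to 50 after the start of the gene's canonical transcript, GRCm39 with GENCODE starts). It was in none of the 145 promoters of genes that rose and none of the 110 promoters of genes that fell. The shorter core CACGTG, which the palindrome contains, was in 6.9% of the promoters of genes that rose, 11.8% of those of genes that fell and 10.2% of all. Each motif reads alike on both strands. A stretch is shown for a hydrolase that holds the palindrome (capitals) upstream of its start: Gla, alpha-galactosidase (chrX:133501932-133501959, minus strand). Gla was at means of 7.89 and 8.34 CPM in the TFEB KO and the DKO (log2 fold change 0.07, adjusted p = 0.899).
Gla: gagatctcggTCACGTGAgcaactctcg

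**Figure D4:**
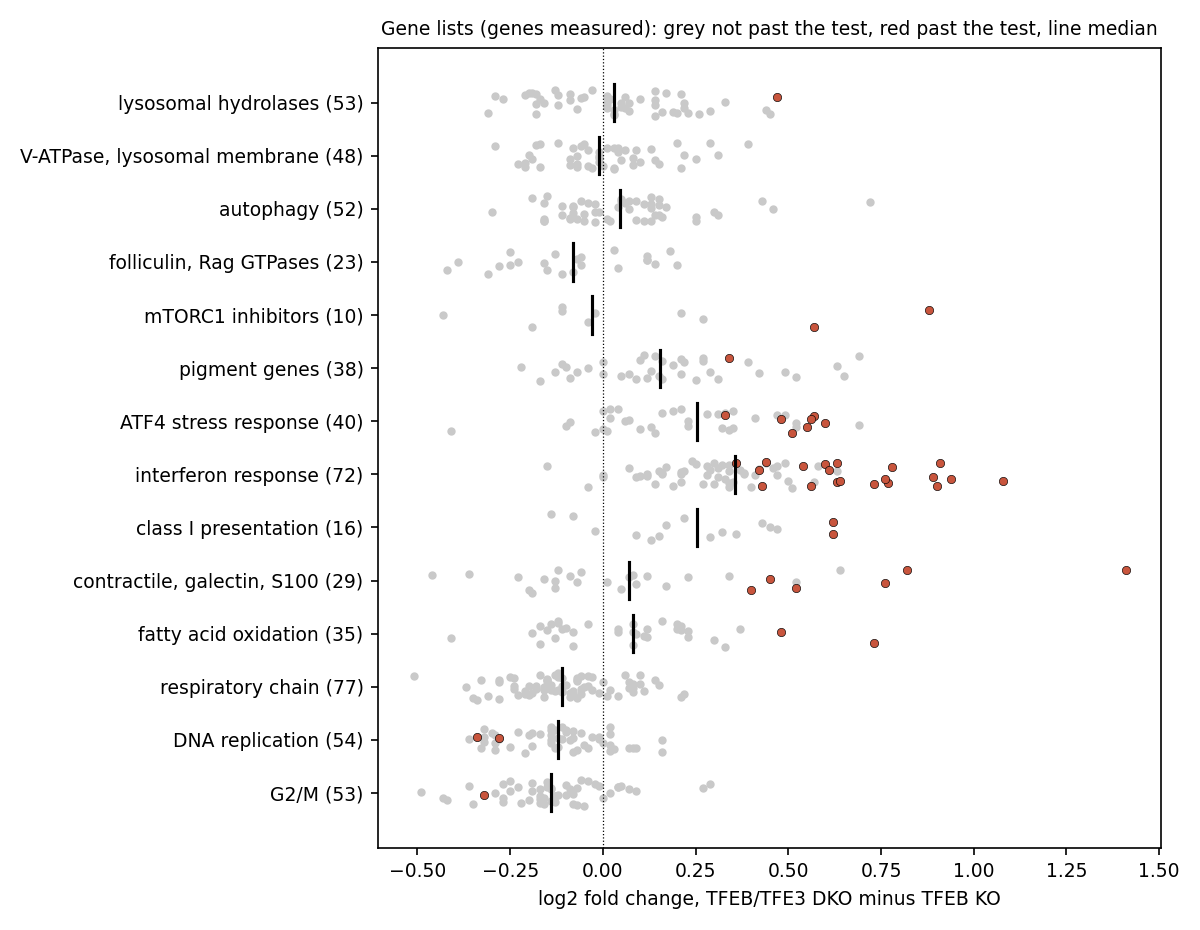
Log2 fold change of TFEB/TFE3 DKO minus TFEB KO (horizontal axis) for the measured genes of 14 lists (rows, number measured in brackets); each point is a gene, red where it passed the test, and the line is the median of the list. Interferon response genes lie to the right with a median of 0.36 and 20 of 72 past the test, while the lysosomal and autophagy lists centre near 0 with 1 gene past it.

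Interferon response genes that passed the test were all higher in the DKO. Of 72 measured, 20 rose and none fell (edgeR 19 and none), with 49 higher and none lower at an unadjusted p under 0.05, and 69 had a fold change above 0. The share that rose was 27.8%, beside 1.25% of all genes, and the median log2 fold change was 0.36, beside -0.00459 for all genes. The largest was Slfn2, a Schlafen family gene, at 10.5, 9.87 and 11.1 CPM in TFEB KO libraries and 23.7, 20.4 and 26.1 CPM in DKO libraries (log2 fold change 1.08, SE 0.213, adjusted p = 0.00757). Oasl1, an oligoadenylate synthetase-like protein, was at 11.9, 12.8 and 12.9 CPM against 25.9, 23.2 and 25.8 CPM (log2 fold change 0.94, adjusted p = 0.00302). Ifi44 was at 31.9, 27.1 and 27.3 CPM against 48.7, 59.7 and 57.1 CPM (log2 fold change 0.91, adjusted p = 3.27e-05), and Ifi204, a DNA sensor of the AIM2-like family, at 13.9, 13.2 and 12.5 against 24.8, 22.8 and 29.5 CPM (log2 fold change 0.9, adjusted p = 0.000124). In each of these 4 genes every DKO library lay above every TFEB KO library, but the groups did not overlap for 261 of the 262 genes that passed. The number that rose was 5 without both replicate 2 libraries, and 11 to 20 when 1 library was left out: 12 without TFEB KO replicate 2, 11 without TFEB KO replicate 3, 13 without DKO replicate 1 and 12 without DKO replicate 3.

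Members at higher levels also rose. Ifit3, an RNA-binding antiviral protein, was at means of 201 ± 16.6 and 305 ± 26.6 CPM (SD, n = 3), and Rsad2, the antiviral enzyme viperin, at 404 ± 12.7 and 547 ± 32.6 CPM. The regulator Irf7 had a log2 fold change of 0.63 (adjusted p = 0.0556), while Stat2 rose by 0.42 (adjusted p = 0.0318). Isg15, a ubiquitin-like modifier, did not pass (adjusted p = 0.781): it was at 211, 437 and 242 CPM in TFEB KO libraries and 268, 480 and 268 CPM in DKO libraries, and replicate 2 was the highest in each line.

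The motif GAAANNGAAA, the core of the element that interferon-activated STAT and IRF factors bind, was in 10 of the 20 promoters of the interferon genes that rose (50%) and 36 of the 71 of the measured list (50.7%), against 3.41% of all promoters on either strand. The stretches are shown because these genes moved together, with the motif, or its reverse complement where it lies on the other strand, in capitals: Ifit3 (chr19:34560797-34560826, plus strand), Rsad2 (chr12:26506552-26506581, minus strand), Stat2 (chr10:128106135-128106164, plus strand), Ddx60 (chr8:62381092-62381121, plus strand), Irgm1 (chr11:48762258-48762287, minus strand) and Ifi204 (chr1:173594627-173594656, minus strand).
Ifit3: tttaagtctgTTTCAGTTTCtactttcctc
Rsad2: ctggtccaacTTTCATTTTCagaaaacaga
Stat2: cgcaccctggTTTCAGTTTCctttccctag
Ddx60: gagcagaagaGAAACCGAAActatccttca
Irgm1: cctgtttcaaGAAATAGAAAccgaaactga
Ifi204: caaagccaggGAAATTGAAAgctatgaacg

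The direction of these interferon genes differed between the contrasts of TFE3 loss without and with TFEB. In TFE3 KO minus parental, which shares no library with the comparison above, 62 of the 72 fell and 1 rose, with a median log2 fold change of -1 (4.5% of all genes rose and 7.78% fell there). The difference between the 2 effects passed its own test for 63 members as a higher value without TFEB and for 1 as a lower value, Ifi27 (difference -0.47, adjusted p = 0.0052). This difference passed for 12.4% of all genes. The mean of the list, as log2(CPM + 1) minus the parental mean, was -0.98, -0.95 and -1 in the TFEB KO, -0.63, -0.53 and -0.58 in the DKO, and -1.03, -1 and -1.03 in the TFE3 KO. All 3 lines were thus below parental cells, and the DKO was the closest to them. Across the lines without MITF, the same mean was -4.06 to -4 in the MITF KO, -0.24 to -0.17 in the MITF/TFE3 DKO, 0.42 to 0.46 in the MITF/TFEB DKO and -3.02 to -2.97 in the TKO. The list thus spread over more than 4 log2 units between clones, and the direction of its genes differed between contrasts of TFE3 loss. In MITF/TFE3 DKO minus MITF KO 69 of 72 rose, beside 18.1% of all genes. In TKO minus MITF/TFEB DKO 70 of 72 fell, beside 6.99% of all genes. Each line is 1 clone, so background and clone cannot be told apart here.

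**Figure D5:**
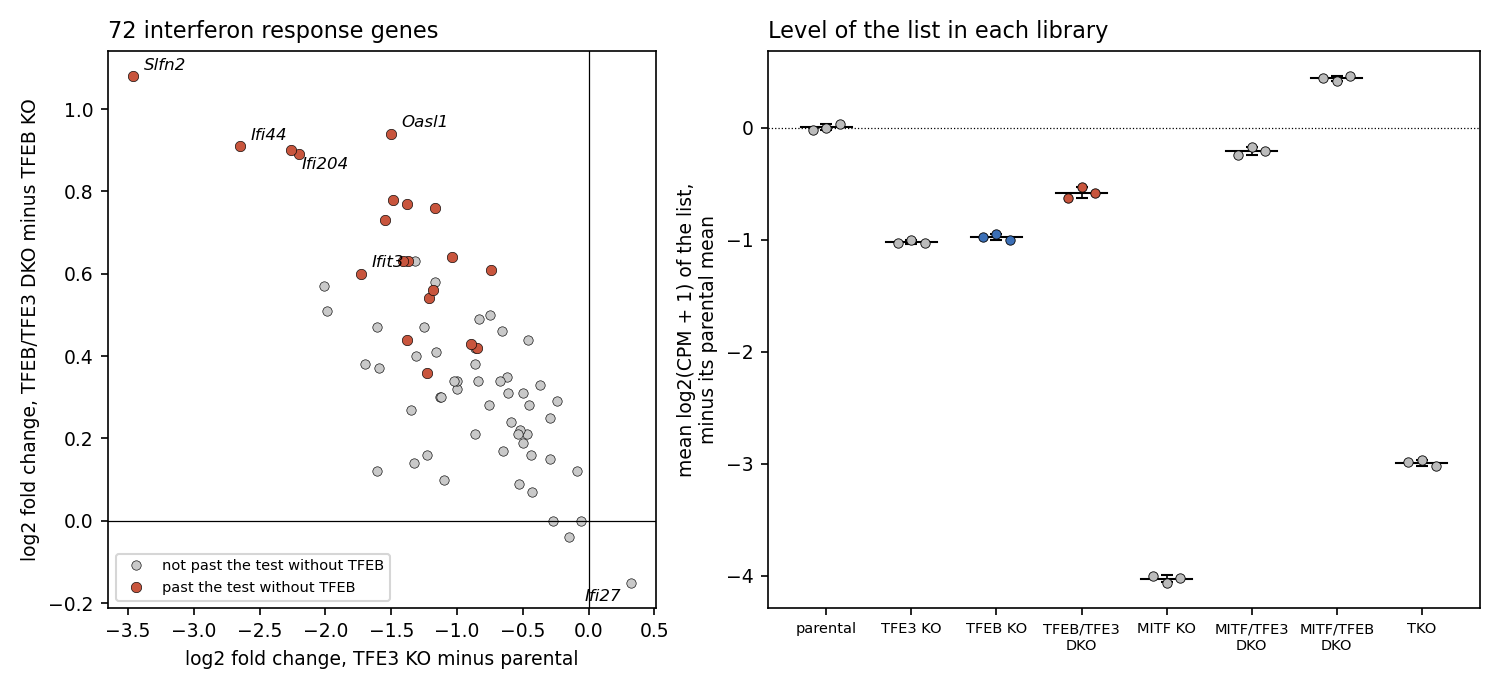
Left, log2 fold change of the 72 interferon genes without TFEB (vertical axis) against that in TFE3 KO minus parental (horizontal axis); red points passed the test without TFEB, and all 20 of them lie above 0 and to the left of 0. Right, the list's mean log2(CPM + 1) minus its parental mean in each of the 24 libraries, with line means and SD (n = 3); the DKO libraries lie at -0.63 to -0.53 and the TFEB KO libraries at -1 to -0.95.

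The genes of class I antigen presentation that passed the test were higher in the DKO. Of 16 measured genes 2 (12.5%) rose, beside 1.25% of all genes, and none fell, with the same counts by edgeR. At an unadjusted p under 0.05, 7 were higher and none lower. The median log2 fold change was 0.25, and 13 of the 16 were above 0. B2m, the light chain of class I molecules, was at 2868, 1999 and 2056 CPM in TFEB KO libraries and 3771, 3099 and 3627 CPM in DKO libraries (log2 fold change 0.62, SE 0.126, adjusted p = 0.00984). Nlrc5, the class I transactivator, was at 5.54, 6.63 and 7.54 against 9.62, 11.1 and 11 CPM (log2 fold change 0.62, adjusted p = 0.0149). B2m lost its call without TFEB KO replicate 2 or 3 or DKO replicate 1 (adjusted p = 0.0641 to 0.0713), and Nlrc5 without TFEB KO replicate 1 or 2 or DKO replicate 3 (0.0509 to 0.0619). In TFE3 KO minus parental 10 of the 16 fell and none rose, beside 7.78% and 4.5% of all genes.

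Part of the ATF4 program rose. ATF4 is the transcription factor of the integrated stress response and controls amino acid supply. Of 40 measured genes 7 (17.5%) rose, beside 1.25% of all genes, and none fell (edgeR 6 and none). At an unadjusted p under 0.05, 20 were higher and none lower, and the median log2 fold change was 0.26. Gpt2, alanine transaminase, was at 44.5, 49.3 and 42.0 CPM in TFEB KO libraries and 73.6, 60.5 and 73.4 CPM in DKO libraries (log2 fold change 0.6, adjusted p = 0.00825). Trib3, a pseudokinase that inhibits AKT, was at 66.9, 83.1 and 74.5 against 116, 102 and 117 CPM (log2 fold change 0.57, adjusted p = 0.0149), and Pck2, mitochondrial PEP carboxykinase, at 60.5, 56.5 and 64.1 against 93.2, 81.0 and 95.1 CPM (log2 fold change 0.56, adjusted p = 0.00394). Gpt2 lost its call without TFEB KO replicate 3 or DKO replicate 1 (adjusted p = 0.0515 and 0.0543), and Trib3 without TFEB KO replicate 3 or DKO replicate 1 or 3 (0.0515 to 0.0768). The mitochondrial folate enzymes Aldh1l2 and Mthfd2 rose by 0.55 and 0.33 on the log2 scale, the stress-induced cofactor Nupr1 by 0.51 and Ddit3, the factor CHOP, by 0.48. Atf4 itself was at means of 1223 ± 87.6 and 1450 ± 261 CPM (SD, n = 3; adjusted p = 0.363), and asparagine synthetase, Asns, at 257 ± 48.3 and 278 ± 18.3 CPM (adjusted p = 0.604). The number that rose was 11 with the replicate term for these 2 lines, 5 without both replicate 2 libraries, and 2 without TFEB KO replicate 3, 2 without DKO replicate 1 and 3 without DKO replicate 3. In TFE3 KO minus parental 11 of the 40 fell and 1 rose, beside 7.78% and 4.5% of all genes. The difference between the effects passed for 15, each higher without TFEB, and for 12.4% of all genes.

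Inhibitors of mTORC1 signalling shared a member with this list. Of 10 measured, Trib3 and Ddit4 (20%) rose, beside 1.25% of all genes, and none fell, with the same counts by edgeR. Ddit4, also called REDD1, was at 76.9, 40.7 and 45.7 CPM in TFEB KO libraries and 105, 98.4 and 88.5 CPM in DKO libraries (log2 fold change 0.88, SE 0.16, adjusted p = 0.00434). It was at a mean of 55.8 CPM in parental cells and 35.1 CPM in the TFE3 KO, where it fell (adjusted p = 0.00917). It lost its call without both replicate 2 libraries (adjusted p = 0.0849). Sesn2, a stress-induced GATOR regulator, was at means of 5.11 and 6.01 CPM (adjusted p = 0.746), and Deptor, an inhibitory subunit of mTOR complexes, at 220 and 216 CPM (adjusted p = 0.955).

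Of 29 measured genes in the list of contractile actin genes, transgelins, galectins and S100 proteins, 6 (20.7%) rose and none fell with limma and edgeR. Of all genes 1.25% rose with limma, and the list's median was 0.07. The 6 were the galectins Lgals7, Lgals3 and Lgals8, the calcium-binding S100a6 and S100a4, and vinculin, Vcl, a focal adhesion protein; none was an actin or transgelin. Lgals3 was at 343, 296 and 339 CPM in TFEB KO libraries and 581, 494 and 658 CPM in DKO libraries (log2 fold change 0.82, SE 0.107, adjusted p = 0.000118). S100a6 was at 85.2, 88.5 and 77.2 against 140, 140 and 147 CPM (log2 fold change 0.76, SE 0.0866, adjusted p = 1.99e-05). In the TFE3 KO the same 2 genes were below parental cells, Lgals3 at 302 against 468 CPM and S100a6 at 20.1 against 32.8 CPM. Smooth muscle actin, Acta2, was at 0 and 0.0642 CPM in the TFEB KO and the DKO.

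Of the genes that the study follows in these libraries, 16 were listed here. They cover proliferation, invasion, lipid metabolism, melanocyte differentiation and mTORC1 inhibition. Of the 16, 3 (18.8%) rose and none fell (edgeR 2 and none). Of all genes 1.25% rose, and the study chose the genes it follows on these samples. Further pigment genes that it follows, such as Dct, Tyr and Pmel, were among the 10 melanocyte markers, of which none passed. Met, the hepatocyte growth factor receptor, was at 305, 189 and 252 CPM in TFEB KO libraries and 509, 411 and 471 CPM in DKO libraries (log2 fold change 0.92, SE 0.139, adjusted p = 0.000703). It also rose in TFE3 KO minus parental (log2 fold change 0.49, adjusted p = 0.0232). Without MITF it fell, in MITF/TFE3 DKO minus MITF KO (-0.69, limma adjusted p = 0.000519) and in TKO minus MITF/TFEB DKO (-0.56, 0.00738). Ppargc1a, the coactivator of mitochondrial genes PGC1α, was at 231, 160 and 197 against 337, 308 and 324 CPM (log2 fold change 0.73, SE 0.123, adjusted p = 0.00217). Mc1r, the melanocortin receptor, was at 406, 283 and 332 against 434, 411 and 432 CPM and passed narrowly (adjusted p = 0.0476), with 0.0703 by edgeR. The desaturases Scd1 and Scd2 had log2 fold changes of 0.2 (adjusted p = 0.519) and -0.24 (0.488), the invasion-linked receptor Axl -0.05 (0.913) and Ngfr -0.16 (0.786). Kit was at most 1.54 CPM in any of the 6 libraries, Slc27a1, a fatty acid transporter, was at means of 6.19 and 5.86 CPM (adjusted p = 0.903), and Hk2, Nampt, Axin2, Cdk2 and Trpm1 did not pass (adjusted p = 0.524, 0.232, 0.107, 0.719 and 0.0882).

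Single genes of other lists passed, to be read beside the 1.25% of all genes that rose. In fatty acid oxidation, Cpt1a, which admits long-chain fatty acids to mitochondria, rose by 0.48 on the log2 scale beside Ppargc1a, 2 of 35 measured. The Cpt1a call was lost without any of the 3 TFEB KO replicates or DKO replicates 2 and 3 (adjusted p = 0.0528 to 0.119), and without both replicate 2 libraries (0.305). Sox9, a neural crest factor, was at 53.2, 41.5 and 49.8 CPM in TFEB KO libraries and 85.7, 65.5 and 81.7 CPM in DKO libraries (log2 fold change 0.67, adjusted p = 0.00672), and lost its call without TFEB KO replicate 2 (0.0521) or DKO replicate 1 (0.0539). The AP-1 members Fosl2 and Junb rose by 0.69 and 0.53, 2 of 24 genes of MAPK output, and Fzd7, a WNT receptor, by 0.47, 1 of 26 WNT genes. Fosl2 lost its call without TFEB KO replicate 3 (adjusted p = 0.0544), Junb without TFEB KO replicate 2 or 3 or DKO replicate 1 or 2 (0.077 to 0.104), and Fzd7 without any 1 library other than TFEB KO replicate 1 (0.0745 to 0.157). Without both replicate 2 libraries the adjusted p was 0.0705 for Fosl2, 0.259 for Junb and 0.276 for Fzd7. In the glutathione and NRF2 list Mgst2 and Srxn1 rose, 2 of 40, and edgeR called neither (adjusted p = 0.0573 and 0.0518). Of 46 matrix genes only Spp1 rose, of 44 glycolysis and hypoxia genes only Ddit4, and of 38 pigment genes only Mc1r, with 11 pigment genes higher and none lower at an unadjusted p under 0.05. None of 77 respiratory chain genes, 39 sterol and fatty acid synthesis genes, 29 unfolded protein response genes, 35 TGFβ and BMP genes, 16 clock genes or 13 BCL2 family genes passed with limma or edgeR. At an unadjusted p under 0.05, 1 respiratory chain gene was higher and 6 lower, 2 and 0 of the sterol genes, 2 and 2 of the unfolded protein genes, 6 and 1 of the TGFβ genes, and 1 clock gene and none of the BCL2 family.

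Few cell cycle genes passed the test. Of 54 DNA replication genes 2 (3.7%) fell and none rose (edgeR 1 and none), beside 0.933% of all genes that fell, 12 were lower and none higher at an unadjusted p under 0.05, and the median log2 fold change was -0.12. Mcm5, a subunit of the replicative helicase, fell by 0.28 on the log2 scale (adjusted p = 0.0418, and 0.053 by edgeR). Of 53 G2/M genes only Bub3 (1.89%), a spindle checkpoint protein, fell (log2 fold change -0.32, adjusted p = 0.0498, and 0.0537 by edgeR). At an unadjusted p under 0.05, 12 G2/M genes were lower and 1 higher, and the median log2 fold change was -0.14. When 1 library was left out, Mcm5 lost its call without each but DKO replicate 3, and Bub3 without TFEB KO replicate 2 or 3 or DKO replicate 1 or 3. In TFE3 KO minus parental 13 of the 54 replication genes rose and none fell, beside 4.5% and 7.78% of all genes. The difference between the effects passed for 16, each lower without TFEB, and for 12.4% of all genes.

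The genes that passed were then read in the other backgrounds, in contrasts that share no library with this comparison. In TFE3 KO minus parental, where 4.5% of all genes rose and 7.78% fell, 8 (5.33%) of the 150 that rose here rose and 73 (48.7%) fell. Of the 112 that fell here, 28 (25%) rose and 11 (9.82%) fell there. In TKO minus MITF/TFEB DKO, the loss of TFE3 without TFEB and MITF, 5.41% of all genes rose and 6.99% fell, and of the 150 genes 12 (8%) rose and 50 (33.3%) fell. Of the 112 genes 13 (11.6%) rose and 16 (14.3%) fell. In MITF/TFE3 DKO minus MITF KO, where 18.1% of all genes rose and 19.7% fell, 60 (40%) of the 150 rose and 34 (22.7%) fell, and 36 (32.1%) of the 112 rose and 29 (25.9%) fell. The effect of TFE3 loss without TFEB differed with MITF for 9.72% of all genes.

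Tuba4a, Tfe3, Pak3 and Smtnl1 were the DEGs that moved the same way, past the test, in TFE3 KO minus parental. Smtnl1 rose from a mean of 0.358 to 1.82 CPM there. The difference between the effects was large for Slfn2, Ccdc8, Crabp2, Ifi44, Lsp1, Usp11 and Ifi204. Crabp2 fell from 4.55 to 0.391 CPM when TFE3 was lost from parental cells and rose from 2.86 to 10.3 CPM when it was lost from the TFEB KO. Ccdc8, Lsp1 and Usp11 changed on TFE3 loss from parental cells but did not pass without TFEB (adjusted p = 0.756, 0.746 and 0.712). Ccdc8 fell from 18.9 to 0.0499 CPM and Usp11, a deubiquitinase, from 8.47 to 0.125 CPM in TFE3 KO minus parental, whereas Usp11 was at 12.1, 9.69 and 20.1 CPM in TFEB KO libraries and 17.6, 11.5 and 18.3 CPM in DKO libraries. Each of these lines is 1 clone, and the part of clone differences in these contrasts was not tested.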

How the data were processed

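The authors sequenced 3′ ends (QuantSeq Forward), trimmed reads with Trim Galore 0.6.5 and cutadapt 2.10, checked them with FastQC 0.11.9, aligned them with STAR 2.7.8a to mm39 and normalised with edgeR. The counting tool, annotation and gene filter are not given in the sources used here. The deposited values are CPM divided by TMM factors, a normalised signal; 99.9% of values were whole reads within 0.01, so reads per library (18300902 to 26667877) were recovered, and floors and intervals cover counting error only. Replicate libraries differed by more than sampling noise.

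Genes were tested with limma 3.58.1 (R 4.3.3) on log2(CPM + 1), with 1 coefficient per line over 24 libraries, a variance trend and Benjamini-Hochberg adjustment over 12010 genes; fold changes are given on this scale and are too small for genes at low levels. The tests were tried on simulated counts in which libraries of a line varied independently, without the shared axis of variation of the real libraries. Changes were placed in genes above the lowest levels. There limma recovered 62% of 1.5-fold and 86% of 2-fold changes between the 2 lines. For the difference without and with TFEB it recovered 32% and 72%. edgeR 4.0.16 quasi-likelihood on the reads, pseudocounts of 0.25 and 5, a mean of at least 5 CPM, other scalings, other fits and leaving out libraries were alternatives. Deviations of same-numbered libraries of the TFEB KO and DKO correlated at 0.51, 0.77 and 0.39, although over all 8 lines the mean was 0.0222. Deviations were taken from each line's mean, and replicate 2 stood apart in both lines. The correlations are therefore linked to each other and do not establish a pairing, and replicate numbers were used only in alternatives. The labels do not say what a number shares.

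Genes were named by rule: the family, and the 12 largest rises and falls among DEGs without overlap. Of each list the rule took DEGs and up to 3 leading genes. It also took the 16 listed genes that the study follows. Last came the 8 leading DEGs shared with TFE3 KO minus parental and the 8 largest differences between effects. Some genes that this rule names are not reported here. Car5a, Tmem255a, Apbb1ip and Tmem179 were named to complete a count, and other members of lists were named after their values were seen. Members and lists were chosen with earlier results of these data known. Promoters and positions were read from GRCm39 for 11664 of the 12010 genes, matched by symbol.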

Additional observations from a re-analysis of the deposited data

Results flagged for a closer look

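For 28 named genes the effect of TFE3 loss without TFEB, minus its effect in parental cells, passed the limma test of the difference and was at least 1 on the log2 scale. Of all 12010 genes 390 met both conditions. Many named genes were chosen by their changes or differences in these same libraries, so the number gives no separate support. Among interferon and antigen presentation genes the difference was 4.54 for Slfn2, 3.57 for Ifi44, 3.16 for Ifi204, 2.44 for Oasl1, 1.14 for B2m and 1.04 for Nlrc5. Among stress and signalling genes it was 1.64 for Trib3, 1.53 for Ddit4, 1.17 for Pck2 and 1.1 for Fosl2. For secreted, adhesion and calcium-binding proteins it was 2.59 for Clu, 2.43 for Pecam1, 1.94 for Spp1, 1.85 for Vwf, 1.55 for Stc1, 1.45 for Lgals3 and 1.44 for S100a6. For other genes it was 4.39 for Ccdc8, 3.58 for Crabp2, 3.34 for Lsp1, 3.27 for Usp11, 1.9 for Lncbate10, 1.63 for Dppa2, 1.44 for Arhgap45, 1.39 for Pak3, 1.35 for Capn6 and 1.3 for Pstpip1. It was negative for Lmo1, at -2.03. The adjusted p of these differences was lowest for Ifi44 (4.85e-13) and highest for Stc1 (0.0224). Pak3 rose in both backgrounds, so its difference is one of size.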

How the results depend on the processing

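Of the 47 named genes that passed the test, each kept its direction in every alternative that could be computed for it, and 43 to 46 kept their call with pseudocounts of 0.25 or 5, other scalings, no variance trend or the replicate block over all lines, 37 with edgeR, and 2 with only the 6 libraries in the fit. DEGs higher and lower numbered 2 and 2 with a pseudocount of 5, 4 and 3 among genes with a mean of at least 5 CPM, and 1 and 1 with only the 6 libraries. They numbered 21 and 20 with edgeR, and 27 and 21 with a pseudocount of 0.25. With the replicate block over all lines 149 genes rose and 111 fell. Alternatives added after seeing the data were the replicate term for the 2 lines (173 fell), the 6 libraries with the replicate block (87 rose) and leaving out both replicate 2 libraries (40 rose, 22 fell, and 5 interferon genes rose). Leaving out 1 library gave 13 to 31 DEGs higher (31 without TFEB KO replicate 1) and 4 to 10 lower (10 without DKO replicate 3), and 64 to 223 genes that rose and 37 to 139 that fell; the number that passed fell by over 1.5 times without TFEB KO replicate 2 (64 and 37), TFEB KO replicate 3 (78 and 44), DKO replicate 1 (66 and 39) or DKO replicate 3 (76 and 44). The differences without and with TFEB numbered 903 (without TFE3 KO replicate 2) to 1935, and 1485 with all libraries. Interferon genes that rose numbered 11 to 20 and ATF4 genes 2 to 8, and ATF4 genes 12 with quantile normalisation and 11 with the replicate term.

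Signs turned only for genes that did not pass: Mitf -0.03 and Ngfr 0.05 without both replicate 2 libraries, Deptor 0.02 with quantile normalisation, and, when 1 library was left out, Mitf (-0.01 to 0.22), Kit (-0.26 to 0.21), Hk2 (-0.01 to 0.28), Slc27a1 (-0.22 to 0.09), Deptor (-0.11 to 0.03), Axl (-0.09 to 0.03), Cdk2 (-0.01 to 0.31), Ccdc8 (-0.02 to 0.31) and Usp11 (-0.01 to 0.48). The causes were not tested. For depth, 1 read was worth 0.0399 to 0.0532 CPM in the 6 libraries.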

Other observations

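The genes of this section were chosen after their values were seen. Ribosomal protein genes lay lower in the DKO, and of 80 measured 79 had a log2 fold change below 0. Of the 80, 11 (13.8%) fell past the test, beside 0.933% of all genes, and none rose (edgeR 14 and none). The median was -0.35, with 53 lower and none higher at an unadjusted p under 0.05. Rpl32 was at 3437, 4725 and 3778 CPM in TFEB KO libraries and 2759, 3131 and 2683 CPM in DKO libraries, and replicate 2 was the highest in each line. The summed level of the group was 92270 to 107500 CPM in TFEB KO libraries and 77560 to 80490 CPM in DKO libraries. None of the 80 passed without both replicate 2 libraries or without TFEB KO replicate 2, while 3 passed without TFEB KO replicate 3 and 1 each without DKO replicate 1 or 3 or with quantile normalisation, and the part of the axis on which those libraries stand apart was not tested. Other genes that fell included Ncl, Nop58 and Srm. Ncl, nucleolin, was at 3159, 3159 and 3206 against 2445, 2689 and 2549 CPM, Nop58, of the box C/D particle, at 862, 886 and 967 against 744, 749 and 767 CPM, and Srm, spermidine synthase, at 202, 199 and 220 against 147, 129 and 163 CPM.

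Cdkn1a, the cell cycle inhibitor p21, rose from 432, 369 and 390 to 563, 556 and 531 CPM (log2 fold change 0.47, adjusted p = 0.0149), whereas it fell in TFE3 KO minus parental (log2 fold change -0.95). Ptgds, prostaglandin D2 synthase, rose from 1112, 744 and 837 to 1934, 1466 and 1796 CPM (log2 fold change 0.96, adjusted p = 0.000124). Dync1i1, a dynein chain, fell from 52.1, 38.8 and 41.8 to 22.6, 19.9 and 24.1 CPM. Cyp26b1, which degrades retinoic acid, fell from 126, 96.2 and 109 to 52.0, 58.4 and 69.9 CPM, and it fell too in TFE3 KO minus parental (log2 fold change -1.82). In TKO minus MITF/TFEB DKO its log2 fold change was -2.36, but in MITF/TFE3 DKO minus MITF KO it rose by 2.69. Prss35, a serine protease-like gene, was at 7.67, 7.45 and 9.02 CPM in TFEB KO libraries and 9.74, 9.81 and 7.48 CPM in DKO libraries, and at 0 to 0.0314 CPM in the mean of every other line.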
